A study of Mus musculus with 12 samples.

Results

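Genes that mark T cells, 10 in number, were followed in fractions enriched for CD115-positive monocytes. Their rows were found by symbol: the CD3 chains Cd3d, Cd3e and Cd3g, the kinase Lck, the transcription factor Bcl11b, the co-receptors Cd4 and Cd8a, the co-stimulatory receptor Cd28, and the chemokine receptors Ccr4 and Ccr9. All 10 were found among 52553 features, and all 10 passed the filter on low counts, which left 20135 features for testing.

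A T cell reads antigen through a receptor that signals by way of the CD3 chains. Lck, which binds the tails of CD4 and CD8, phosphorylates those chains once the receptor is engaged. BCL11B keeps developing thymocytes in the T lineage, and CD28 supplies the co-stimulatory signal on a naive T cell. CCR4, the receptor for CCL17 and CCL22, is carried by regulatory, type 2 helper and skin-homing T cells, while CCR9, the receptor for CCL25, is carried by thymocytes, gut-homing T cells and plasmacytoid dendritic cells. CD4 and CD8α also occur outside the T lineage, CD8α on a class of dendritic cells and CD4 on some dendritic cells and macrophages.

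The libraries came from C57BL/6 male mice, and none of the animals had been splenectomized. Groups were splenic CD115+ cells of animals with spleen and liver intact, splenic CD115+ cells 24 h after resection of 70% of the liver with the spleen left in place, and blood CD115+ cells from animals of the same 2 kinds, with 3 libraries a group. Each library pooled cells of 5 mice, the labels mention no sham operation for the intact mice, and cells were taken on magnetic CD115 beads after a density gradient, with collagenase and red cell lysis for the spleen only. Tissue and preparation therefore cannot be told apart in any comparison of blood with spleen. Unless the intact mice were sham-operated, which the labels do not state, resection cannot be told apart from the anaesthesia and surgery around it. The labels do not say whether the 5 mice differed between libraries of a group, so the p-values measure the spread between these libraries.

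Total estimated counts were 36990033 to 46401368 per library. Levels are given as CPM, counts scaled to a common library size, with totals adjusted by the trimmed mean of M values. Csf1r, which encodes CD115, stood at 209 to 1192 CPM over the 12 libraries, so the target of the sort was detected in each one. The sorted cells were not free of other leukocytes at the RNA level: the 3 CD3 chains together gave 12.8 to 728 CPM. In intact spleen 6 B-cell markers summed to 4109 to 4661 CPM, and 9 monocyte markers to 3186 to 3539 CPM. In every library of the other groups the monocyte sum was the higher. Since these are bulk libraries, fewer T cells and less T-cell RNA per cell cannot be told apart.

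Of the 10 genes, 5 lie on mouse chromosome 9, and their start-site regions are shown because these genes, the CD3 chains and both chemokine receptors, are the ones whose levels are set against each other. Sequences are from RefSeq on GRCm38.p6, from 250 bases before to 50 bases after the start, written 5′ to 3′ on the strand of the gene; the counts themselves were made on GRCm39, to which these positions do not apply. Capitals mark short motifs of factor families that work in T cells, read on either strand. The ETS family is shown by its core AGGAAG, and factors of the TCF and LEF family by the core CTTTGA. The core of the GATA family was taken as AGATAA, and the E-box of bHLH proteins was taken as CAGCTG. Cd3d lies at chr9:44981536-44981835 (plus strand), Cd3e at chr9:45009562-45009861 (minus), Cd3g at chr9:44980382-44980681 (minus), Ccr4 at chr9:114496495-114496794 (minus) and Ccr9 at chr9:123766961-123767260 (plus).
Cd3d: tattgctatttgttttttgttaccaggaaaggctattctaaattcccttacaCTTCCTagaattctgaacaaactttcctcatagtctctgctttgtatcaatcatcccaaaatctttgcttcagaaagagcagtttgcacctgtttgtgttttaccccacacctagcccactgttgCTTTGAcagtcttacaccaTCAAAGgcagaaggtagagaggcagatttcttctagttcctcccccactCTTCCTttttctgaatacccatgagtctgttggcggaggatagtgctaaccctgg
Cd3e: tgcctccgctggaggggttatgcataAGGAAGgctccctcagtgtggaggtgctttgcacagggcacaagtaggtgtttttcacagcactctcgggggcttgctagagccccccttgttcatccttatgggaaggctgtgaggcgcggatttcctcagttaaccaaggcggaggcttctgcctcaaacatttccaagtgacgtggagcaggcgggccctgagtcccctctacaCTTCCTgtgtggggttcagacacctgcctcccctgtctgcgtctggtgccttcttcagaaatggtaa
Cd3g: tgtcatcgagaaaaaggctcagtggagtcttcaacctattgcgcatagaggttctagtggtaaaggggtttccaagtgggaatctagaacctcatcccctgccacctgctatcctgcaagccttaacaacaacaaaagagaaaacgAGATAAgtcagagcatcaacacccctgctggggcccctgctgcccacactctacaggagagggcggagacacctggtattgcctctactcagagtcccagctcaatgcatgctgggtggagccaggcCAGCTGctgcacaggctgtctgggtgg
Ccr4: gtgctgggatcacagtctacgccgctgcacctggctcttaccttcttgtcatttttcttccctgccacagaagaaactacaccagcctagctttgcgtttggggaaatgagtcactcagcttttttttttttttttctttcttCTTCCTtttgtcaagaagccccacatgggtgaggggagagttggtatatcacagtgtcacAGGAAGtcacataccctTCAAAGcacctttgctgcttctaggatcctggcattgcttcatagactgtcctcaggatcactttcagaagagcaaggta
Ccr9: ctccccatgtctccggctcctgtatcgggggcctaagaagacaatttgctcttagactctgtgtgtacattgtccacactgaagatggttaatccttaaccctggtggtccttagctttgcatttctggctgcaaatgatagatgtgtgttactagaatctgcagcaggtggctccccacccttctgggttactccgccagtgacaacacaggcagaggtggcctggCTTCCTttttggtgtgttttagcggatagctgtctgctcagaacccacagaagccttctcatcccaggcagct

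The ETS core occurred 2 times in the Cd3d, Cd3e and Ccr4 regions, 1 time in that of Ccr9, and not in that of Cd3g. It was found in 35.4% of 32851 promoter regions of the same length, so its presence is common. The TCF/LEF core, found in 16% of all regions, occurred 2 times in the Cd3d region and 1 time in the Ccr4 region, and the Cd3g region held 1 GATA core (11.2% of all regions) and 1 E-box (16.3%). The RUNX core TGTGGT (16.8%) and the TATA box TATAAA (13.6%), searched in the same way, had no match in these 5 regions. Of the 10 genes, 8 matched an entry of the RefSeq promoter table, Lck with 2 start sites. The E-box reads the same on both strands, none of the 6 motifs is a stretch of another, and a match is a run of letters, not a bound site.

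One library stood apart in the genes described here. Intact blood library 3 had a ratio of Cd4 to Cd8a CPM of 24.8, against 2.35 and 2.19 in intact blood libraries 1 and 2, while the other 9 libraries lay between 1.01 and 7.86. Of 46 T-cell genes compared (the 10 and 36 others), 17 were more than 2-fold higher in library 3 than the mean of libraries 1 and 2, 15 were more than 2-fold lower and 14 lay within 2-fold. Libraries 1 and 2 differed from each other by a ratio of 0.715 to 1.69 over the same genes.

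Gata3, the master regulator of type 2 helper T cells, was the extreme, at 258 CPM in library 3 against a mean of 19.98 CPM in libraries 1 and 2, a ratio of 12.9. The ratio was 4.77 for Lck, 4.65 for Ccr4, 3.19 for Cd3e, 3.08 for Cd3g, 2.73 for Cd3d, 2.17 for Bcl11b, 2.09 for Cd28, 2.07 for Cd4 and 1.16 for Ccr9. In the opposite direction, Cd8a was 5.26-fold lower, Il7r (the interleukin 7 receptor) 5.50-fold lower, Cd40lg (CD40 ligand) 6.44-fold lower and Foxp3, the factor of regulatory T cells, 3.77-fold lower in library 3. Of the NK cell markers, Ncr1, Klrb1c, Klre1 and Eomes were 4.63- to 6.44-fold lower there and Gzma 1.12-fold lower. The 6 markers of innate lymphoid cells, which also use Gata3, summed to 2.62 CPM there, against 18.7 and 15.7 CPM in libraries 1 and 2. Most of each sum was Il1rl1, at 2.21 CPM against 15.3 and 13.7 CPM. The part of innate lymphoid cells in the Gata3 level was not tested. Csf1r was also lowest in library 3, at 209 CPM against 467 and 363 CPM. So were the summed markers of other cells: 525 against 1632 and 2373 CPM for B cells, and 64.1 against 168.5 and 259 CPM for neutrophils. Red cell markers summed to 124100 against 404700 and 277600 CPM, platelet markers to 74.0 against 272 and 196 CPM, and monocyte markers to 3484 against 9246 and 6355 CPM. Unassigned reads took 3.85% of library 3, against 2.12% and 2.33%. For the comparisons that use intact blood, calls and the values that moved most are therefore given without this library too.

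**Figure D1:**
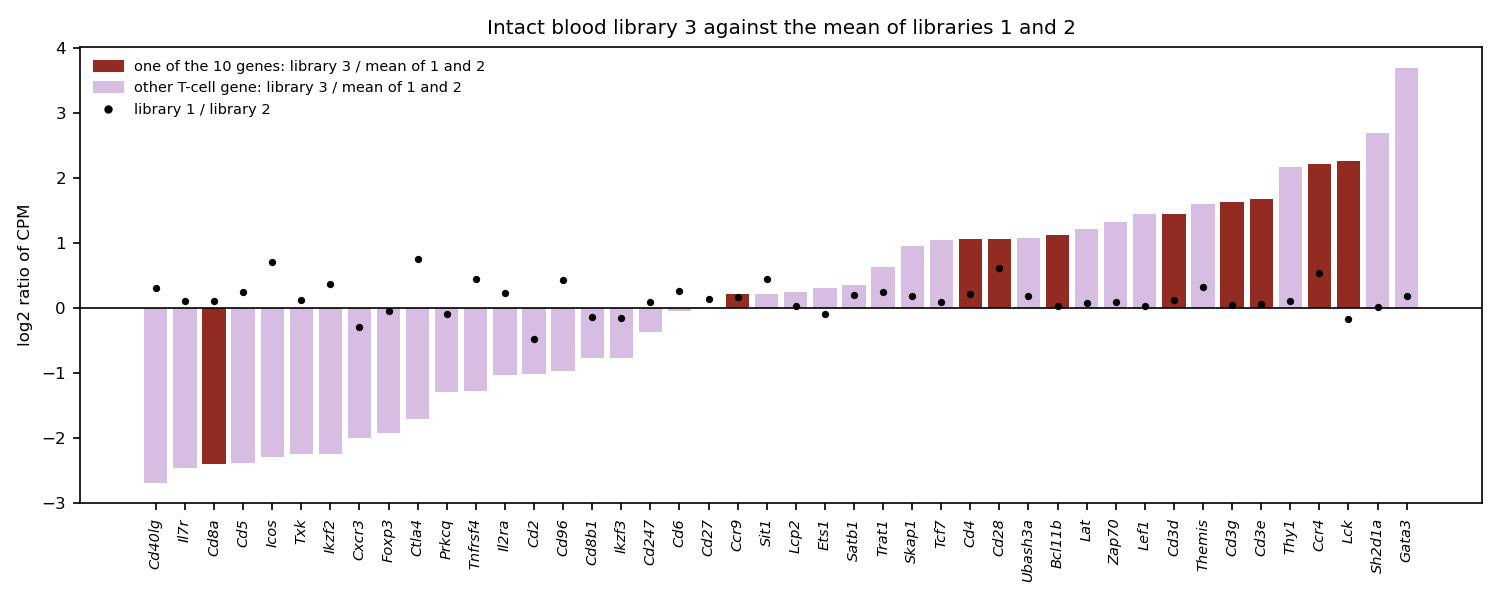
Log2 ratio of CPM (vertical axis) for the T-cell genes shown (horizontal axis, ordered by ratio), intact blood library 3 over the mean of libraries 1 and 2 (bars, dark for the 10 genes followed here) and library 1 over library 2 (points); Il4, near 0 in all libraries, is left out. Bars run from Cd40lg, 6.44-fold lower, to Gata3, 12.9-fold higher, while the points stay close to 0.

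The first question was what happened to these genes in blood CD115+ cells 24 h after resection. Of the 10, 9 fell and the other, Cd8a, was not called. By edgeR's quasi-likelihood test, with a gene called at a Benjamini-Hochberg adjusted p under 0.05 and a log2 fold change beyond 1 in size, 9 were lower and 0 higher, against 6.11% of all features called lower and 7.8% called higher. The same 9 had no overlap between the 3 intact and 3 resected libraries, which 19.0% of all features showed in that direction. The median log2 fold change was −2.485 over the 10 and −0.103 over all features.

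The CD3 chains, which carry the receptor's signal into the cell, fell together. Cd3d stood at 75.9, 69.9 and 199 CPM in intact blood libraries 1 to 3 and at 33.9, 32.7 and 18.0 CPM after resection. Cd3e stood at 74.8, 72.2 and 234 CPM and then at 28.0, 24.9 and 14.2 CPM. Cd3g gave 97.1, 94.0 and 295 CPM intact and 33.8, 35.6 and 16.3 CPM resected. For each chain the lowest intact library was more than 2-fold above the highest resected one. The log2 fold changes (resected over intact, ± SE) were −2.03 ± 0.51 for Cd3d (edgeR adjusted p = 0.0201), −2.51 ± 0.58 for Cd3e (adjusted p = 0.015) and −2.50 ± 0.53 for Cd3g (adjusted p = 0.00983).

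Lck and Bcl11b showed the largest fitted drops among the 10. Lck, the kinase that starts receptor signalling, read 238, 266 and 1202 CPM in intact blood and 83.4, 89.75 and 40.8 CPM after resection, a log2 fold change of −3.00 ± 0.64 (edgeR adjusted p = 0.0104). Bcl11b, the T-lineage commitment factor, read 157, 154 and 337 CPM and then 25.4, 26.1 and 16.3 CPM, a log2 fold change of −3.26 ± 0.55 (edgeR adjusted p = 0.00377). Bcl11b was 9.57-fold lower, and its drop did not rest on library 3 alone, since libraries 1 and 2 were already several-fold above the resected ones.

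Of the co-receptors, Cd4 fell and Cd8a was not called. Cd4 read 166, 143 and 320.2 CPM in intact blood and 48.9, 47.3 and 27.9 CPM after resection, a log2 fold change of −2.34 ± 0.32 and the smallest adjusted p of the 10 (edgeR, 0.00172). Cd8a read 70.5, 65.3 and 12.9 CPM in intact blood and 17.55, 22.3 and 8.70 CPM after resection, with a log2 fold change of −1.62 ± 0.66 (edgeR adjusted p = 0.110). Intact library 3 lay inside the range of the resected libraries for Cd8a and alone made the groups overlap. Cd28 read 162, 106 and 279.6 CPM and then 40.65, 41.3 and 17.1 CPM, a log2 fold change of −2.47 ± 0.50 (edgeR adjusted p = 0.00847).

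Both chemokine receptors fell as well, from lower counts. Ccr4 read 2.34, 1.62 and 9.20 CPM in intact blood and 0.641, 0.713 and 0.338 CPM after resection, with a log2 fold change of −2.955 ± 0.74 (edgeR adjusted p = 0.0196); over all 12 libraries it had 7 to 421 estimated counts. Ccr9 read 21.03, 18.7 and 23.1 CPM and then 8.97, 5.98 and 4.76 CPM, a log2 fold change of −1.67 ± 0.37 (edgeR adjusted p = 0.0115). Ccr9 was the most even of the 10 in intact blood, where library 3 differed little from libraries 1 and 2.

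Without intact blood library 3, 8 of the 10 were called lower in blood by the same test, against 5.36% of all features. Cd8a was then called, at −2.07 ± 0.55 (edgeR adjusted p = 0.0287), whereas Cd3d at −1.38 ± 0.43 (adjusted p = 0.0518) and Ccr4 at −1.81 ± 0.57 (adjusted p = 0.0511) were not. Lck moved most, to −1.83 ± 0.38, and Ccr9 least, to −1.60 ± 0.40. The Ccr4 call was also lost without resected blood library 1, 2 or 3 (adjusted p = 0.0524, 0.0531 and 0.0748), the Cd3d call without resected library 2 or 3 (0.0538 and 0.0772), and the Cd3e call without resected library 3 (0.0602), all by edgeR. DESeq2 called all 10 lower, against 8.03% of features.

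**Figure D2:**
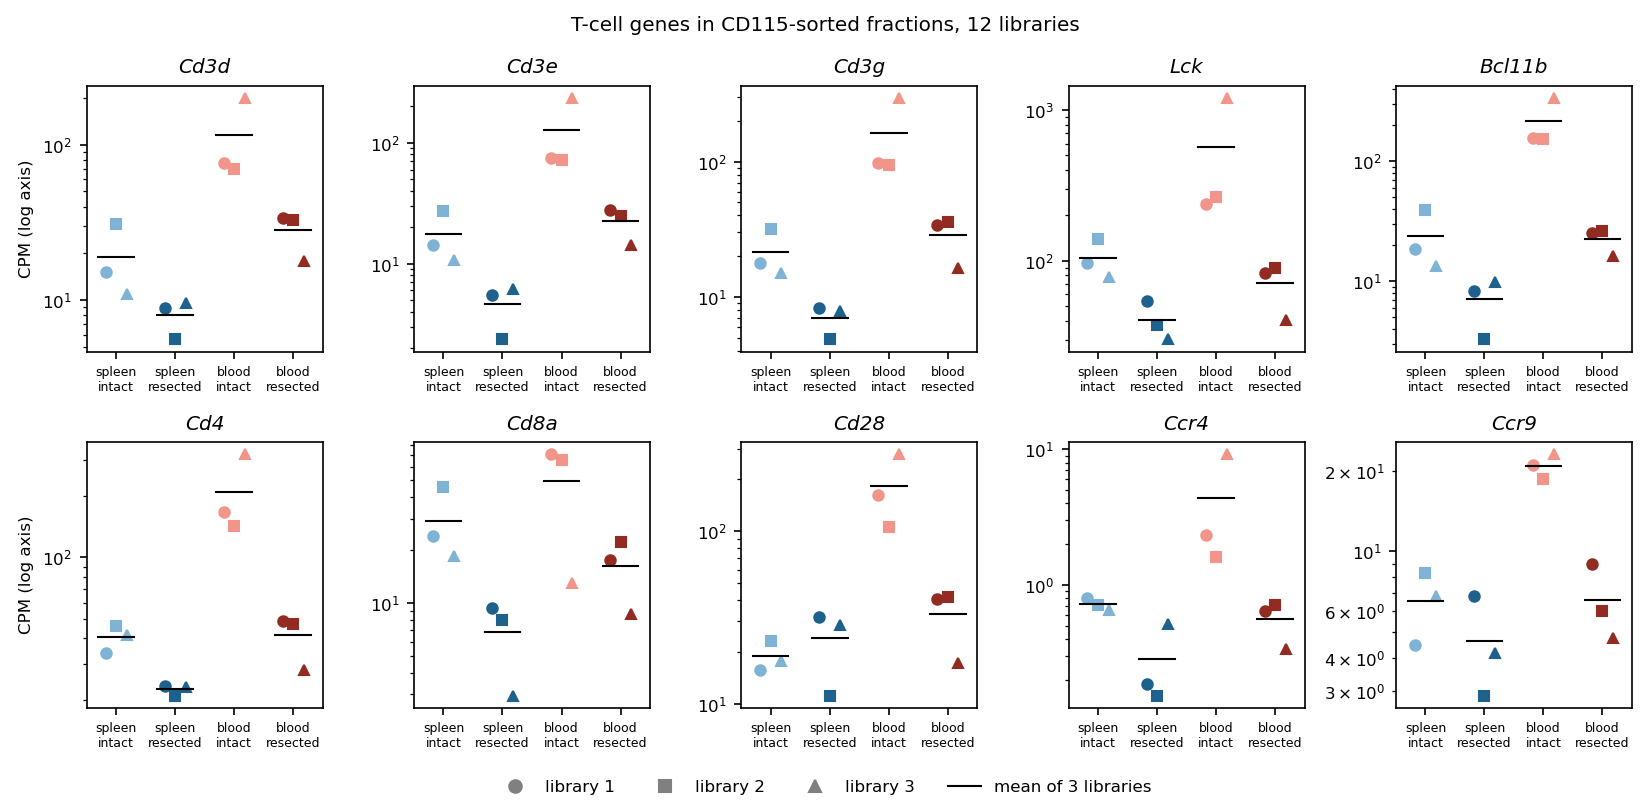
Level of each of the 10 genes (CPM, log axis) in the 3 libraries of each group (circle, square and triangle for libraries 1, 2 and 3), with the mean of the 3 as a bar. In 9 of 10 panels the 3 intact blood libraries lie above the 3 resected blood libraries, and the exception, Cd8a, has its intact blood library 3 at 12.9 CPM.

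Markers of other cells also differed in range between the same blood libraries. Summed levels of 6 NK cell markers ran from 128 to 249 CPM in intact blood and from 21.6 to 60.9 CPM after resection, with 5 of 5 tested markers at a negative log2 fold change, 0 of them called and Klra8 at or near 0 in every library. The 5 neutrophil markers summed to 64.1 to 259 CPM in intact blood and 2944 to 16830 CPM after resection, and all 5 were called higher. The 6 B-cell markers overlapped, at 525 to 2373 CPM against 713 to 1770 CPM, and 6 red cell markers took 124100 to 404700 CPM against 217800 to 529200 CPM. The 9 monocyte markers summed to 3484 to 9246 CPM intact and 12780 to 14960 CPM resected, with 3 called higher, and the 4 platelet markers to 74.0 to 272 and 771 to 863 CPM, with Pf4 called higher. With the haemoglobin genes left out of the libraries, 9 of the 10 T-cell genes were called lower, against 6.17% of all features. The part of these cells' signals in the T-cell result was not tested.

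In splenic CD115+ cells none of the 10 was called after resection, although 9 had a negative log2 fold change. By edgeR, 0 passed the threshold against 0.596% of all features called lower, 7 had an unadjusted p under 0.05 in the lower direction against 9.31% of features, and 8 did not overlap between the groups against 17.7%. Their median log2 fold change was −1.351, with 0.050 over all features.

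The CD3 chains were lower in intact spleen than in intact blood. Cd3d read 15.3, 30.7 and 10.98 CPM in intact spleen and 8.88, 5.59 and 9.54 CPM after resection. Cd3e read 14.3, 27.5 and 10.6 CPM and then 5.51, 2.36 and 6.15 CPM. Cd3g read 17.9, 31.9 and 15.0 CPM and then 8.34, 4.85 and 7.84 CPM. In all 3 chains the groups stayed apart by a narrow gap, with intact library 2 high and resected library 2 low. The log2 fold changes were −1.25 ± 0.50, −1.90 ± 0.58 and −1.62 ± 0.52 (edgeR adjusted p = 0.192, 0.107 and 0.116).

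Lck read 96.9, 139 and 77.5 CPM in intact spleen and 54.0, 37.4 and 30.1 CPM after resection (log2 fold change −1.37 ± 0.60, edgeR adjusted p = 0.232). Bcl11b read 18.5, 38.95 and 13.5 CPM and then 8.31, 3.25 and 9.78 CPM (−1.73 ± 0.52, adjusted p = 0.104 by edgeR). Neither gene had overlapping groups. Cd4 varied little between libraries of a group, at 33.9, 46.15 and 41.7 CPM intact and 23.4, 20.9 and 23.2 CPM resected (−0.85 ± 0.31, edgeR adjusted p = 0.158). Cd8a read 24.0, 45.9 and 18.6 CPM and then 9.41, 7.97 and 2.95 CPM, the largest fitted difference in spleen (−2.12 ± 0.68, edgeR adjusted p = 0.118). Clec9a is a marker of the dendritic cells that carry CD8α. It averaged 13.95 ± 5.61 CPM in intact spleen and 4.45 ± 3.57 in resected spleen (mean ± SD, n = 3). In blood Clec9a averaged 2.88 ± 0.50 CPM intact and 2.04 ± 1.08 CPM resected. Of the 5 markers listed for these cells, all 5 had a negative log2 fold change in spleen. In blood 4 had a positive one, 3 lay higher without overlap, and none was called in either tissue. Xcr1, also listed, averaged 10.03 CPM in intact and 4.287 CPM in resected spleen, but 1.207 and 4.095 CPM in blood. The part of these cells in the Cd8a level was not tested.

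Cd28 ran against the others. It read 15.7, 23.2 and 17.6 CPM in intact spleen and 31.9, 11.1 and 28.7 CPM after resection, so that resected libraries 1 and 3 lay above, and resected library 2 below, all 3 intact libraries (log2 fold change 0.34 ± 0.48, edgeR adjusted p = 0.740). Ccr4 read 0.800, 0.710 and 0.660 CPM and then 0.187, 0.153 and 0.516 CPM (−1.34 ± 0.71, edgeR adjusted p = 0.317), without overlap but at few counts. Ccr9 overlapped, at 4.46, 8.31 and 6.81 CPM intact and 6.82, 2.88 and 4.18 CPM resected (−0.50 ± 0.36, edgeR adjusted p = 0.469).

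The spleen count changed with the fit, in which all 12 libraries share 1 estimate of the spread. Without intact blood library 3, which is not a spleen library, edgeR called 4 of the 10 lower in spleen (Cd3e, Cd3g, Lck and Cd8a) against 1.89% of features, and DESeq2 on all libraries called 4 (Cd3e, Cd3g, Bcl11b and Cd8a) against 3.02%. Summed NK cell markers in spleen ran from 46.8 to 106 CPM intact and 2.63 to 17.7 CPM resected, B-cell markers from 4109 to 4661 and 1177 to 3564 CPM, and neutrophil markers from 534 to 1268 and 3729 to 11670 CPM. The 6 red cell markers ran from 665 to 3023 CPM intact and 7166 to 31360 CPM resected, each without overlap and none called. The part of these signals in the T-cell values was not tested.

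**Figure D3:**
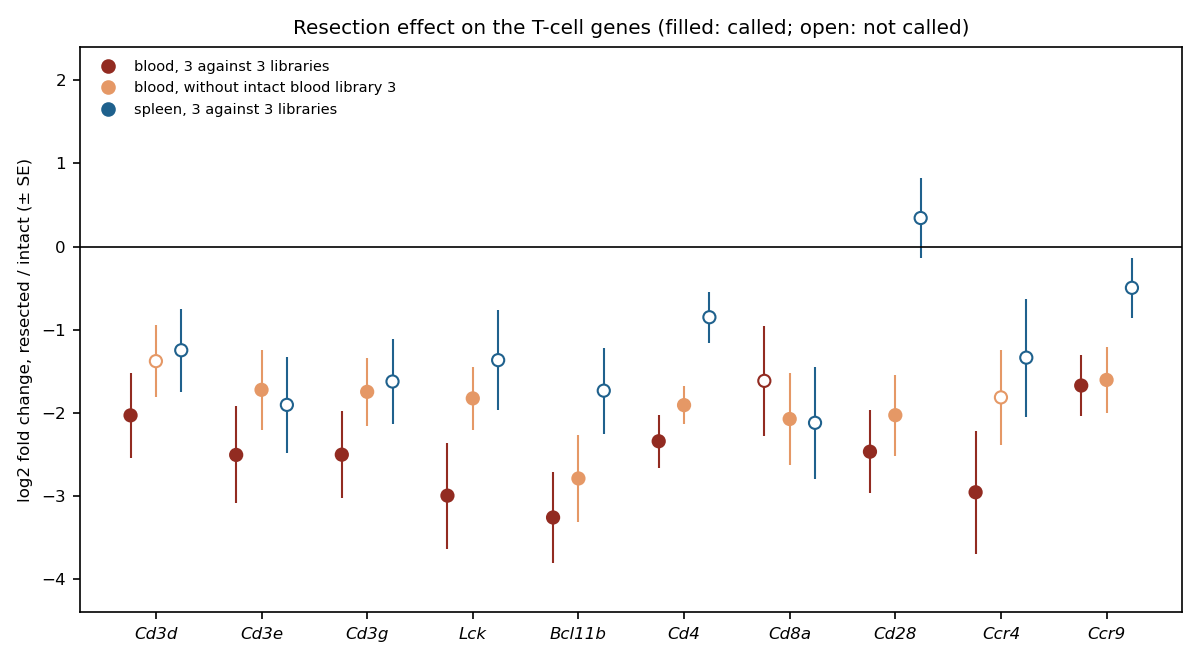
Log2 fold change of resected over intact (vertical axis, ± SE) for each of the 10 genes, in blood with all libraries (red), in blood without intact blood library 3 (orange) and in spleen (blue), filled where called and open where not. Blood values with all libraries lie between −1.62 and −3.26 with 9 filled, those without library 3 between −1.38 and −2.79 with 8 filled, and spleen values between −2.12 and 0.34 with none filled.

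Whether resection acted differently in the 2 tissues was tested as the difference of the log2 fold changes, blood minus spleen. None of the 10 was called by edgeR, against 0.0646% of features called lower, although 3 (Cd4, Cd28 and Ccr9) had an unadjusted p under 0.05 in the lower direction, against 9.56% of features. The difference was −2.81 ± 0.69 for Cd28 (edgeR adjusted p = 0.121), −1.49 ± 0.44 for Cd4 (adjusted p = 0.166) and −1.18 ± 0.51 for Ccr9 (adjusted p = 0.274). DESeq2 called Cd28 (−2.76, adjusted p = 0.00239) and Cd4 (−1.44, adjusted p = 0.0211). For Cd3e the difference was small against its error, −0.60 ± 0.79, and turned to 0.187 without intact blood library 3. Without that library the differences were −2.37 ± 0.66 for Cd28, −1.055 ± 0.31 for Cd4, −1.105 ± 0.54 for Ccr9 and −0.457 ± 0.51 for Lck (edgeR adjusted p = 0.137, 0.153, 0.342 and 0.697).

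In intact animals the T-cell genes were higher in blood than in splenic CD115+ cells. By edgeR, 8 of 10 were called higher, against 3.86% of features, and 9 did not overlap, against 13.6%. The median log2 fold change was 2.597 over the 10 and −0.019 over all features. Cd28 was 9.69-fold higher (log2 fold change 3.28 ± 0.52, adjusted p = 0.00623), Bcl11b 9.14-fold (3.19 ± 0.54, adjusted p = 0.0087), Cd3g 7.50-fold (2.91 ± 0.53, adjusted p = 0.0116) and Cd3e 7.27-fold (2.86 ± 0.59, adjusted p = 0.0181), all by edgeR. Cd4 was 5.17-fold and Cd3d 6.06-fold higher, Lck 5.45-fold and Ccr9 3.21-fold. With intact blood library 3 left out, the log2 fold changes were 2.17 ± 0.48 for Cd3e, 2.25 ± 0.41 for Cd3g, 2.04 ± 0.44 for Cd3d, 2.82 ± 0.52 for Bcl11b, 2.94 ± 0.50 for Cd28, 2.03 ± 0.23 for Cd4 and 1.71 ± 0.40 for Ccr9, and all 7 were called.

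The exceptions were Cd8a and Ccr4. Cd8a overlapped between the tissues (0.75 ± 0.65, edgeR adjusted p = 0.523), with intact blood library 3 below all 3 splenic libraries and blood libraries 1 and 2 above them. Ccr4 was higher in all 3 blood libraries and missed the threshold (2.60 ± 0.72, edgeR adjusted p = 0.0512). It was called when DESeq2 was used or when the haemoglobin genes were left out. Without intact blood library 3 the Lck call was lost (1.37 ± 0.37, edgeR adjusted p = 0.0537) and 7 of the 10 were called, where 1001 of 21062 features were called higher. Leaving out intact spleen library 1 or 3 gave 3 and 4 calls, where 306 and 475 features were called higher, against 778 with all libraries.

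After resection the CD3 chains and Bcl11b were called higher in blood by edgeR, 4 of 10 against 6.28% of features, and those 4 and Cd4 did not overlap, against 17.2%. The log2 fold changes were 2.26 ± 0.58 for Cd3e (edgeR adjusted p = 0.025), 2.03 ± 0.52 for Cd3g (0.0245), 1.82 ± 0.51 for Cd3d (0.0336) and 1.67 ± 0.52 for Bcl11b (0.0487). Lck (0.82 ± 0.60), Cd28 (0.47 ± 0.48), Ccr4 (0.98 ± 0.71), Ccr9 (0.51 ± 0.36), Cd4 (0.88 ± 0.31) and Cd8a (1.25 ± 0.66) were not called. All 10 values were positive, with a median of 1.116 and −0.139 over all features. These 4 calls were fragile: 0 of the 10 were called without resected blood library 1 or 2 or without resected spleen library 1 or 2, where 849 to 1189 features were called higher against 1264. Calls numbered 3 without resected spleen library 3, intact spleen library 1 or intact blood library 1, where 1585, 1227 and 1319 features were called higher.

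Scaling mattered little for direction in the tissue comparisons. Leaving out the haemoglobin genes moved the median of all features from −0.019 to 0.097 in intact animals and from −0.139 to −0.016 after resection, and the sign of each of the 10 genes was kept. The order of the group means of Cd3e was 127 ± 92.75 CPM in intact blood, 22.4 ± 7.24 in resected blood, 17.5 ± 8.86 in intact spleen and 4.67 ± 2.03 in resected spleen (mean ± SD, n = 3), and of these neighbours only resected blood and intact spleen had overlapping libraries. For Ccr9 the order was 20.9 ± 2.17, 6.57 ± 2.17, 6.53 ± 1.94 and 4.63 ± 2.01 CPM, in which intact blood overlapped no other group and the 3 lower groups overlapped each other. For Ccr4 it was 4.39 ± 4.18 CPM in intact blood, then 0.723 ± 0.0709 in intact spleen, 0.564 ± 0.199 in resected blood and 0.285 ± 0.201 in resected spleen. Intact blood again overlapped no other group, with an SD nearly as large as its mean, and the neighbours among the 3 lower groups overlapped.

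Other genes of T-cell receptor signalling and identity were read from a list of 40, of which 35 were tested. In blood after resection edgeR called 16 lower (6.11% of all features) and 1 higher (7.8%), 22 did not overlap in the lower direction (19.0%), and the median log2 fold change was −1.543, against −0.103 over all features. Leaving out intact blood library 3 gave 19 called lower (5.36%) and 1 higher. Cd27, a co-stimulatory receptor of the TNF receptor family, had the smallest p: 49.5, 45.1 and 47.4 CPM in intact blood and 6.04, 8.25 and 2.45 CPM after resection, a log2 fold change of −3.09 ± 0.47 (edgeR adjusted p = 0.00278). In this gene intact blood library 3 lay between libraries 1 and 2.

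Further along the receptor pathway, Cd247, the CD3ζ chain that NK cells also use, fell by 1.59 on the log2 scale (SE 0.28, edgeR adjusted p = 0.00462). It read 110, 104 and 82.75 CPM in intact blood and 36.8, 37.3 and 24.5 CPM after resection. Zap70, the kinase that binds phosphorylated CD3 and ζ chains, read 48.55, 45.5 and 118 CPM and then 24.8, 23.8 and 18.0 CPM (−1.67 ± 0.42, edgeR adjusted p = 0.0207). Trat1, an adaptor associated with the receptor (−2.68 ± 0.51, edgeR adjusted p = 0.00639), Ubash3a, a negative regulator of receptor signalling (−2.39 ± 0.42, 0.0045), Skap1, an adaptor for integrin activation (−1.83 ± 0.36, 0.00722), and the transcription factor Ets1, which B and NK cells also express (−1.95 ± 0.35, 0.00469), were called lower as well.

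Lcp2, the adaptor SLP-76, was the gene called higher, at 1.07 ± 0.26 (edgeR adjusted p = 0.0163). It is not confined to T cells, being used by myeloid cells and platelets too, and it rose from 134, 131 and 158 CPM to 189, 276 and 425.5 CPM. Gata3 fell by 4.67 on the log2 scale (SE 1.05, edgeR adjusted p = 0.0129), from 21.3, 18.65 and 258 CPM to 4.76, 4.48 and 2.45 CPM. Without intact blood library 3 its difference was −2.36 ± 0.52 (edgeR adjusted p = 0.0142). Foxp3 was not called (−1.02 ± 0.66, edgeR adjusted p = 0.300), with intact library 3 at 5.33 CPM below all 3 resected libraries, nor was it called without that library (−1.43 ± 0.63, edgeR adjusted p = 0.138).

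In spleen after resection the list had 1 gene called lower, as were 0.596% of all features. It was Trat1, at 5.30, 8.25 and 2.24 CPM intact and 1.33, 0.546 and 1.11 CPM resected (−2.40 ± 0.52, edgeR adjusted p = 0.0486). Of the 35 genes, 33 had a negative log2 fold change (46.4% of all features), 17 had an unadjusted p under 0.05 in that direction (9.31%) and the median was −1.096, against 0.050 over all features. Without intact blood library 3 edgeR called 10 of them lower in spleen (1.89% of all features), Zap70, Cd27, Thy1 and Cd8b1 included. Cd247 (−0.998 ± 0.28, edgeR adjusted p = 0.0890) and Zap70 (−1.32 ± 0.42, adjusted p = 0.117) were not called with all libraries.

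Between tissues most calls in the list were higher in blood. In intact animals edgeR called 15 higher in blood (3.86% of all features) and 0 lower. Without intact blood library 3 it called 19 higher, where 1001 of 21062 features were called higher. The 15 were led by Skap1 (2.88 ± 0.37, adjusted p = 0.00264), Cd247 (1.96 ± 0.28, 0.00421) and the transcription factor Lef1 (3.63 ± 0.56, 0.00555), followed by Trat1, Tcf7 and Thy1. After resection 14 were higher and 1 lower, against 6.28% and 6.87% of all features. Skap1 led again (2.35 ± 0.37, edgeR adjusted p = 0.00308), followed by Trat1 (2.96 ± 0.53, 0.00551). The gene called lower was Ikzf3, which B cells express as well (−1.57 ± 0.45, edgeR adjusted p = 0.0365), and its groups overlapped. No gene of the list was called for a difference of the resection effect between tissues by edgeR, and 4 had an unadjusted p under 0.05, 3 lower and 1 higher, as had 1925 and 1559 of the 20135 features. The T-cell receptor constant regions were not analysed here.

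**Figure D4:**
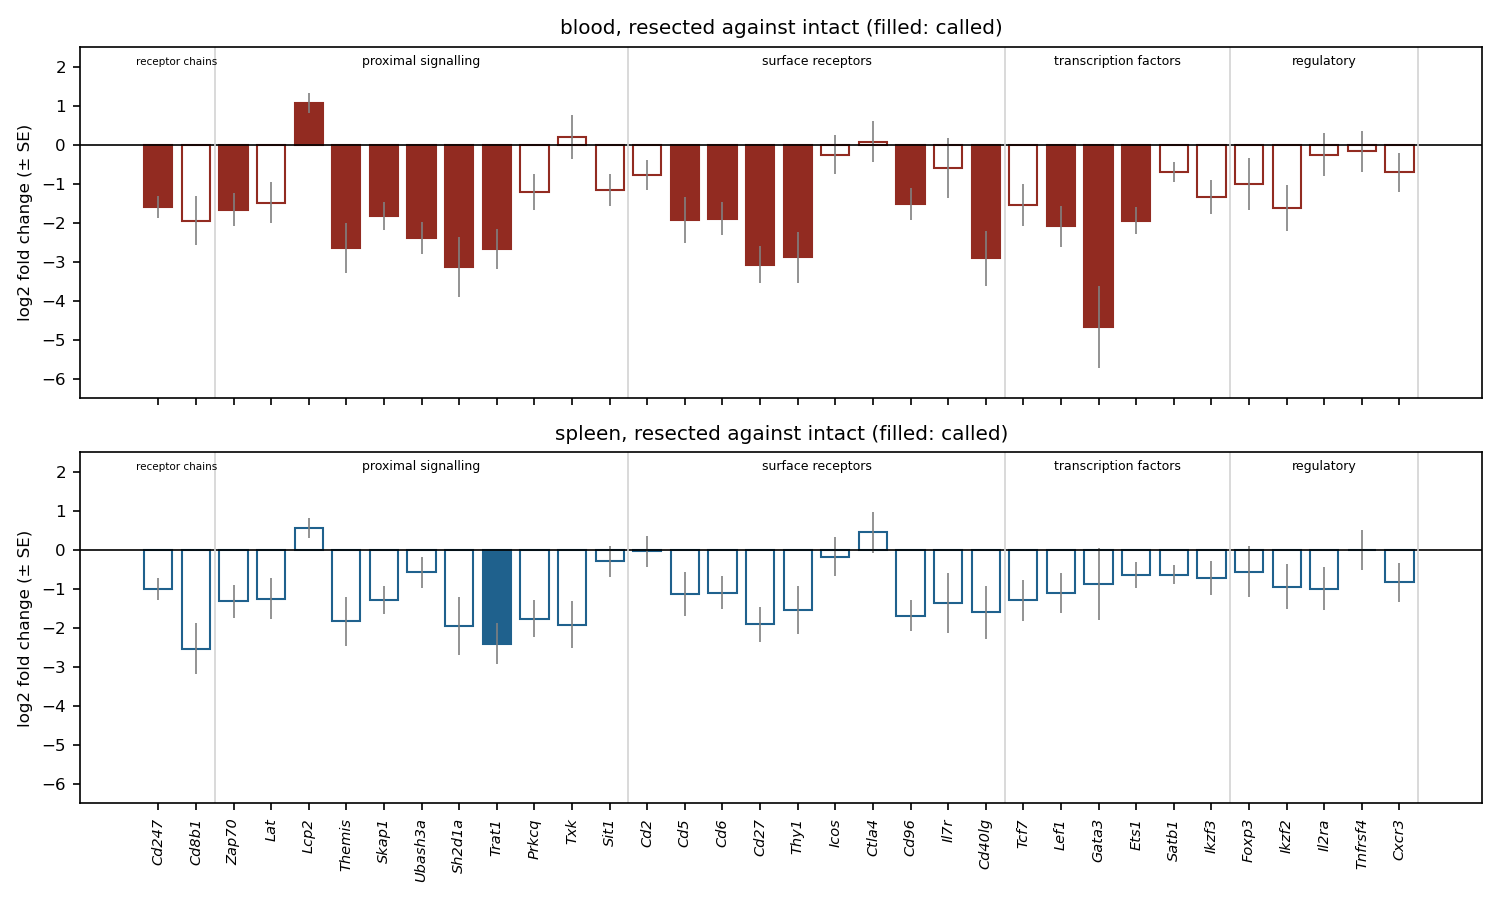
Log2 fold change of resected over intact (vertical axis, ± SE) for the other T-cell genes shown, grouped by role, in blood (top) and spleen (bottom), filled where called. In blood 16 bars are filled below 0 and 1, Lcp2, above 0, and in spleen only Trat1 is filled.

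The last question was how far Ccr4 and Ccr9 followed the CD3 chains from library to library. Per 100 CPM of the 3 CD3 chains, Ccr4 stood at 1.69, 0.787 and 1.80 in intact spleen, 0.822, 1.195 and 2.19 in resected spleen, 0.944, 0.686 and 1.26 in intact blood, and 0.670, 0.765 and 0.697 in resected blood. Resected blood lay below both splenic groups and the other pairs of groups overlapped, and the whole range was narrow beside that of the Ccr4 level itself, from 0.153 to 9.20 CPM. Ccr9 per 100 CPM of CD3 stood at 9.41, 9.22 and 18.6 in intact spleen, 30.01, 22.5 and 17.8 in resected spleen, 8.49, 7.93 and 3.17 in intact blood, and 9.38, 6.41 and 9.82 in resected blood. Resected spleen had high Ccr9 for its CD3, with 2 of 3 libraries above every other library, and intact blood library 3 had the lowest value.

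Within groups, the deviation of each gene's log2 CPM from its group mean was correlated with that of Cd3e over the 12 libraries, which share depth and scaling with Cd3e, by an exact permutation test within groups (1296 permutations, two-sided, 9 relations). Cd3d had r = 0.975 (Spearman's rho 0.944, exact permutation p = 0.000772 for both, adjusted p = 0.00694), Cd3g r = 0.965 and Bcl11b r = 0.967. For Ccr4, r was 0.794 (exact permutation p = 0.00772, adjusted p = 0.0139) and rho 0.755 (exact p = 0.00772, adjusted p = 0.0174). For Ccr9, r was 0.620 (exact permutation p = 0.0463, adjusted p = 0.0521) and rho 0.629 (exact p = 0.0764, adjusted p = 0.0859). Cd8a had r = −0.294 (exact permutation p = 0.504) and rho −0.126 (exact p = 0.762).

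Without the 2 libraries farthest from the median in Cd3e, intact blood library 3 and resected spleen library 2, r was 0.658 for Ccr4, 0.580 for Ccr9, 0.137 for Cd8a and 0.982 for Cd3d. The Ccr4 relation no longer passed without intact blood library 1 (r = 0.778, exact permutation, adjusted p = 0.0964), library 2 (r = 0.771, adjusted p = 0.0964) or library 3 (r = 0.609, adjusted p = 0.182). The Ccr9 relation passed when intact spleen library 1 or 3 or resected spleen library 1 or 3 was left out, with r between 0.641 and 0.701. The other members lay between: Cd28 had r = 0.878, Cd4 0.807 and Lck 0.800.

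**Figure D5:**
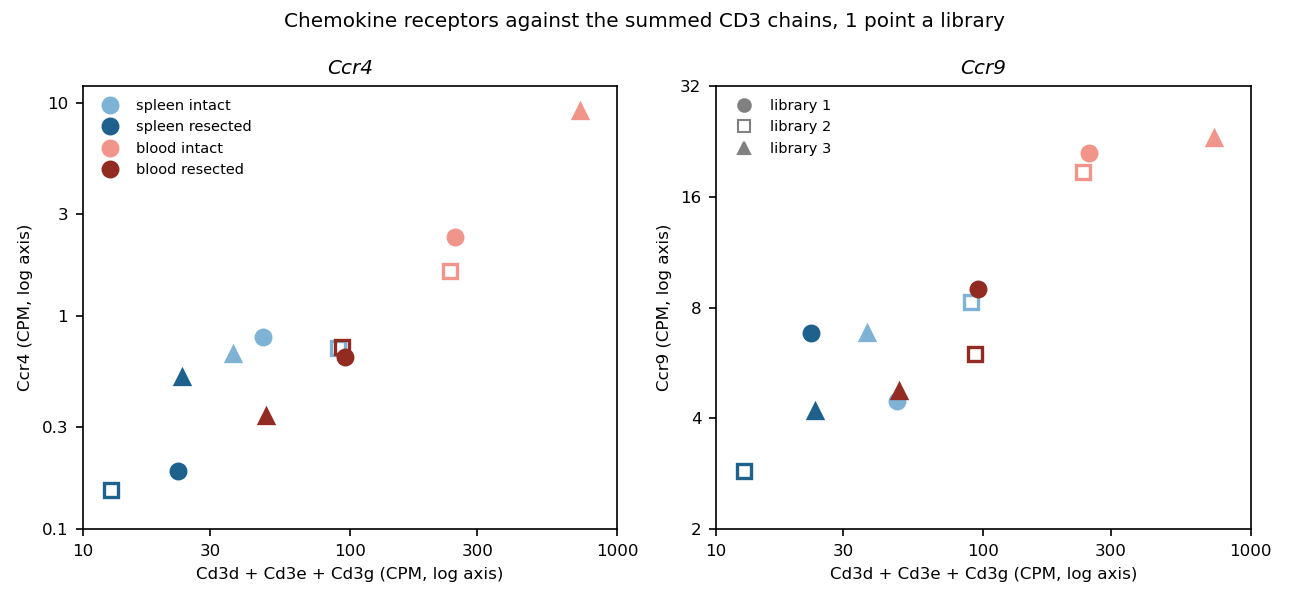
Ccr4 (left) and Ccr9 (right) in CPM against the summed CPM of Cd3d, Cd3e and Cd3g, both on log axes, 1 point a library, with color for the group and shape for the library number. Ccr4 rises from 0.153 to 9.20 CPM as the CD3 sum goes from 12.8 to 728 CPM, and Ccr9 from 2.88 to 23.1 CPM, with intact blood library 3 at the far right of both.

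Over all 12 libraries with groups kept in, the genes most like Ccr4 by Pearson's correlation of log2 CPM were Stat5b (0.978), Sh2d1a (0.965), Tyro3 (0.964), Gata3 (0.963) and Slfn9 (0.956), out of 15679 named genes. Cd3e ranked 23 of them for Ccr4, at 0.932. Those most like Ccr9 were Tex26 (0.971), Prrt2 (0.961), Mex3b (0.961), Gli1 (0.960) and Gm38795 (0.948), with Cd3e at rank 34 (0.907). These correlations describe 12 libraries in 4 groups and are led by the high intact blood libraries. Without library 3 of that group Stat5b and Gata3 stayed among the 5 nearest to Ccr4, Tex26 and Gm38795 among the 5 nearest to Ccr9, and Cd3e ranked 41 and 128.

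CCR9 is also carried by plasmacytoid dendritic cells, so their markers were read beside it. The 6 markers listed summed to 66.4 to 92.8 CPM in intact spleen, 15.7 to 48.7 CPM in resected spleen, 9.04 to 45.2 CPM in intact blood and 9.04 to 21.4 CPM in resected blood, with 5 of 5 tested at a negative log2 fold change in both resection comparisons and none called. Cd300c was at most 0.303 CPM in any library. Siglech, the defining lectin of these cells, read 11.97, 7.32 and 1.25 CPM in the 3 intact blood libraries, where Ccr9 varied little. Its correlation with Ccr9 was 0.554 over 12 libraries and ranked 1494. The part of these cells in the Ccr9 level was not tested.

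The ligands of both receptors were also read. Ccl17 read 0.606, 0.231 and 0.131 CPM in intact blood and 1.68, 0.578 and 1.24 CPM after resection (log2 fold change 1.85 ± 0.67, edgeR adjusted p = 0.0767), and at most 0.125 CPM in any splenic library. It was called higher in blood than in spleen after resection (3.38 ± 0.72, edgeR adjusted p = 0.0111). Ccl22 lay between 0.415 and 4.11 CPM and Ccl25 between 0.763 and 1.17 CPM over the 12 libraries, and neither was called in any comparison.

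Set against the target of the sort, the CD3 chains gave 53.0, 65.0 and 348 CPM per 100 CPM of Csf1r in intact blood and 15.9, 13.7 and 6.73 after resection. In spleen the same figures were 12.7, 19.6 and 6.97 intact and 2.48, 1.07 and 4.01 resected. The groups did not overlap in either tissue. Neither did Csf1r itself, which read 209 to 467 CPM intact and 601 to 719 CPM resected in blood, and 374 to 525 CPM and 587 to 1192 CPM in spleen.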

How the data were processed

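The authors sorted CD115+ cells on magnetic beads and sequenced mRNA of 12 libraries. The labels name a DNBSEQ strand-specific library and the study's methods an Illumina HiSeq instrument. The deposited tables hold estimated counts per feature, not normalized (67088 rows each), and the submitters' processing notes name STAR and GRCm39; the quantifier, annotation and strand setting are not given in the sources used here. Rows of unassigned reads, 1.75% to 4.33% of a library, were left out. Of 40274 rows named by accession, 25340 were matched to a symbol through the RefSeq gene table of GRCm38.p6 and summed, which left 52553 features and added at most 65.1 counts to a member in a library. Sums were rounded to whole counts.

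Libraries were grouped by their labels, 3 a group. edgeR 4.0.16 (R 4.3.3) with filterByExpr, TMM factors (0.661 to 1.263) and a robust quasi-likelihood fit over all 12 libraries gave each comparison, with Benjamini-Hochberg adjustment over 20135 features. A gene was called at an adjusted p under 0.05 and a log2 fold change above 1 in size, and the SE is the log2 fold change over the root of F. Members and lists were chosen with earlier results of these data known, so counts over them carry no set test. Beside the 10 members, the text names up to 6 called genes of the T-cell list per comparison by smallest p, Cd247, Zap70, Foxp3, Gata3, the 3 ligands, leading genes of the marker lists, and the 5 genes nearest Ccr4 and Ccr9; the other genes named, among them Lcp2, Ikzf3, Thy1, Cd8b1, Il7r, Cd40lg, Klra8, Klre1, Eomes, Gzma and Cd300c, were chosen after their values were seen. Correlations used log2 CPM with a prior count of 2. Chi-square per degree of freedom was 21.3 to 618 between libraries of 1 group, so no pair was counted as 1 library deposited again; the labels do not say that they came from separate pools of mice. The fit was also run on simulated counts. These shared a mean profile over all groups, apart from genes changed in resected blood. They held no library made like intact blood library 3, and no result here rests on them. Alternatives were DESeq2 1.42.0, other filters and scalings, a replicate block, fits on the compared groups alone, and leaving out each library. One gene of the T-cell list is not reported here by name and is left out of the plots; counts over the list include it.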

Additional observations from a re-analysis of the deposited data

How the results depend on the processing

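Of 985 values of single members under the alternatives tried, 906 kept their direction and side of the threshold, 57 lost the call, 21 gained it and 1 changed sign. That one was the Cd3e difference of the resection effect between tissues, 0.187 without intact blood library 3 (range −1.093 to 0.187 over libraries left out). With DESeq2, 4 members and 10 other T-cell genes were called in spleen after resection and 2 members and 1 other gene for the difference between tissues, against 0, 1, 0 and 0 with edgeR. DESeq2 also called more features in all, 1564 against 277 in spleen, 2568 against 1480 between intact tissues and 1163 against 57 for the difference. Over all features, the fit on only the groups compared called 1590 in blood against 2801 and 796 between intact tissues against 1480, while spleen had 101 with no filter on low counts, 489 with 10 counts in every library and 150 with the replicate block. Other T-cell genes called in spleen numbered 4 when 10 counts in every library were required, and 0 with no filter on low counts, with symbol rows as deposited, or with only the groups compared. The fit on only the groups compared called 6 members in blood after resection and 4 between intact tissues, against 9 and 8. It called 11 other T-cell genes in blood after resection, against 17. The difference between tissues could not be fitted on fewer than all 4 groups. The cause of these shifts was not tested.

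Leaving out 1 library at a time gave 6 to 9 members in blood after resection, 0 to 4 in spleen, 3 to 9 between intact tissues, 0 to 4 between resected tissues and 0 for the difference. Other T-cell genes numbered 6 to 20, 0 to 10, 5 to 19, 8 to 18 and 0 in the same order. Again in that order, calls over all features numbered 1627 to 2814, 1 to 1025, 531 to 1494, 1450 to 3625 and 5 to 93. With all libraries kept, they numbered 2801, 277, 1480, 2648 and 57. The lowest blood count of other T-cell genes, 6, all lower, came without resected blood library 3. In that fit 635 of 21094 features were called lower (3.01%), against 1231 of 20135 (6.11%) with all libraries. The within-group correlation with Cd3e ranged from 0.609 to 0.892 for Ccr4, from 0.476 to 0.701 for Ccr9 and from −0.526 to 0.322 for Cd8a, whose sign turned without intact blood library 3. The low counts of Ccr4, 7 in its lowest library, limit its precision.

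Libraries of different groups share replicate numbers in the labels. Their deviations from the group means correlated at −0.046 to 0.189 over 18 pairs with the same number. The 2 pairs above 0.1 joined resected spleen with resected blood, at 0.131 for number 2 and 0.189 for number 3. Pairs with different numbers were not compared, so whether the number marks a pairing was not settled. A fit with the replicate block called 2 members between resected tissues, 1 member (Cd8a) in spleen and 0 other T-cell genes in spleen, against 4, 0 and 1 without the block. Over all features, the block gave 1125 called higher between resected tissues and 67 called lower in spleen, against 1264 and 120 without it.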
